A study of Mus musculus with 160 samples.

Results

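The enzymes that make serine from a glycolytic intermediate, and those that pass the one-carbon unit of serine through folate, were followed in single mouse cells from induced hematopoietic endothelium to day-21 blood progenitors. The 8 genes, Phgdh, Psat1, Psph, Shmt1, Shmt2, Mthfd1, Mthfd2 and Mthfd1l, were taken by name as a pathway from the 23420 rows of the expression table. They were selected on measured values, because Phgdh had one of the largest differences between day-14 cells and induced hematopoietic endothelial cells, and the split of day-21 cells at 31 TPM of Gata2 is likewise a measured value of the same cells. Levels and differences of the 8 genes are therefore given as a description, with no test.

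The table held 160 cells in 4 groups, sorted from cultures of mouse pluripotent stem cells (strain C57BL/6). The first group was 65 induced hematopoietic endothelial cells (iHECs), sorted as CD31+CD41lowCD45-c-kit+CD201high. The other 3 groups were induced hematopoietic progenitor cells (iHPCs) matured on OP9-DL1 stroma, a feeder that presents the Notch ligand Dll1, with 21 cells of day 14 and 18 of day 17 sorted as CD45+Lin-, and 56 cells of day 21 sorted as Ter119-CD45+c-kit+CD127+. These days are days 3, 6 and 10 on the feeder. All 4 groups, the iHECs included, came from cells that carry the transcription factors Runx1 and Hoxa9 in a doxycycline-inducible cassette at Rosa26, and no group without the cassette or without doxycycline was part of the comparison. The authors describe the single iHECs and iHPCs as derived from ESCs. The labels name ESCs and iPSCs as sources and do not resolve them by cell. They name no culture or animal, so each group was 1 sample, every SD here describes spread among the cells of 1 sample, and differences between groups carry no replicate check. By the authors' methods, iHECs formed in a medium based on IMDM without the feeder, and iHPCs matured on the feeder in a medium based on alpha-MEM. Day, sort gate, medium and feeder therefore cannot be told apart between iHECs and day 14. Day and sort gate cannot be told apart between day 17 and day 21.

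Serine is built from 3-phosphoglycerate of glycolysis in 3 steps. Phgdh, phosphoglycerate dehydrogenase, oxidizes it, Psat1 transfers an amino group from glutamate, and Psph removes the phosphate. Serine hydroxymethyltransferase then moves a carbon of serine onto tetrahydrofolate and leaves glycine, in the cytosol as Shmt1 and in mitochondria as Shmt2. Mthfd1 is the cytosolic enzyme that interconverts the folate one-carbon forms. In mitochondria Mthfd2 oxidizes the folate unit and Mthfd1l releases it as formate, which cytosolic Mthfd1 can take up again. The pathway feeds purine, thymidylate and methionine synthesis, and it is known for high expression in proliferating cells and for its control by the stress-responsive transcription factor Atf4.

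The 100 bases before an annotated start site of each gene are shown, because the 8 genes share a pathway and 7 of them stood above the 95th percentile of all genes in the same comparison. The sequences are those of the RefSeq promoter table on GRCm38.p6, the assembly that mm10 names, in which all 8 genes had an entry. They run 5′ to 3′ on the strand of the gene, and the capitals mark CCAAT, or ATTGG where the same letters lie on the opposite strand. Psat1 had windows at 2 start sites, of which the outer one is shown. The windows of Psat1, Psph, Shmt1 and Mthfd2 lie inside the span of the gene in the annotation, in which other transcripts begin further upstream.
Phgdh, chr3:98339970-98340069, minus strand: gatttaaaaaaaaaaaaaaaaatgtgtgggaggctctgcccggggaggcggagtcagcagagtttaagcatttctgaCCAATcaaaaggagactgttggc
Psat1, chr19:15925060-15925159, minus strand: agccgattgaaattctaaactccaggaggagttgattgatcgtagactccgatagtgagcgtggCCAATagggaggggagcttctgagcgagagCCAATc
Psph, chr5:129787254-129787353, minus strand: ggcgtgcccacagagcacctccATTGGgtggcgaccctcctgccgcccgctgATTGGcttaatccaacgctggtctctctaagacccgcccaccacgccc
Shmt1, chr11:60811266-60811365, minus strand: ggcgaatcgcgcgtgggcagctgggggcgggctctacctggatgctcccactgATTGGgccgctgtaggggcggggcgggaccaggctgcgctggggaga
Shmt2, chr10:127522445-127522544, minus strand: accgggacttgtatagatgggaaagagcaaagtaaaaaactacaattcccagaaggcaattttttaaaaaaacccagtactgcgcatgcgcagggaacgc
Mthfd1, chr12:76255132-76255231, plus strand: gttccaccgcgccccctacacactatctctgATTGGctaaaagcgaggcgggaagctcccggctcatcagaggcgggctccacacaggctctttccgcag
Mthfd2, chr6:83317605-83317704, minus strand: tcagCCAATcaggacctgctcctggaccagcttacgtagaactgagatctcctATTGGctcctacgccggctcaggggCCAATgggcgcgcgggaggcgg
Mthfd1l, chr10:3972975-3973074, plus strand: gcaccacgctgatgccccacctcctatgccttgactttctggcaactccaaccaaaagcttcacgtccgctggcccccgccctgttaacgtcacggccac

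The CCAAT letters, which proteins such as NF-Y bind, stood in these 100 bases of 6 of the 8 genes, with Shmt2 and Mthfd1l the exceptions. The inner window of Psat1 held none, so that 6 of 9 windows did. Of all 32851 windows in the promoter table, 18.9% held them in the same 100 bases. Mthfd2 had 3 matches and Psph and the outer start site of Psat1 had 2 each. In the whole windows of 300 bases the same 6 genes held CCAAT, against 37.4% of all windows. A share over 100 bases was computed for CCAAT only. The letters TGATGNAA, a form of the C/EBP-Atf response element bound by Atf4, stood in 0 of the members' windows of 300 bases (250 before and 50 after the start) on either strand, against 3.97% of all windows. The GC box GGGCGG stood in windows of 5 of the 8 genes, against 35.7% of all windows, the E-box CACGTG in 0 against 7.15%, and the E2F letters TTTCCCGC and TTTGGCGC in 0 against 1.07% and 0.51%. A match of letters is a description and not a binding site, and no match says only that the letters are not in the window.

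All 8 genes passed the filter for comparison, a value over 1 TPM in upward of 30 cells, as did 9674 genes in all. This filter counted cells of every group, so the iHPCs alone could pass it. TPM, the share of a cell's transcripts that a gene holds, is scaled to the length of the transcript and to the same total in every cell, so that levels of different genes can be set side by side, and it keeps no sequencing depth. How deeply each cell was sequenced is therefore unknown. The median number of genes detected, meaning above 1 TPM, was 4926 for iHECs and 8200, 8101 and 6695.5 for the iHPCs in the order of days. Hprt, a gene that most cells use, was listed at 0 in 6 cells, so that a value of 0 can be a failed estimate.

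Some cells stood apart. In 6 pairs of consecutively numbered cells, 4 of iHECs and 1 each of day 14 and day 17, the cells of a pair had a Pearson correlation of 0.956 to 0.991 with each other over the 9674 genes, whereas no other pair of iHECs went above 0.699 and none of day 17 above 0.819. The day-14 pair, at 0.956, stood little above the next pair of its day, at 0.935. Whether a pair is 1 library deposited under 2 names cannot be tested without counts. With each pair counted once, 61 iHECs and 20, 17 and 56 iHPCs remained. The markers of blood went against the label in 6 cells. In iHECs 2, 31 and 64 the mean over 7 blood markers was 7.46, 6.52 and 8.58 on the log2(TPM + 1) scale, against at most 4.98 in the other iHECs, and in day-14 cells 4 and 17 and day-17 cell 9 it was 2.54, 1.81 and 1.59, against at least 7.10 in the other cells of these days. Each result is given on all cells. For part of the results the value with the pairs counted once or without the 6 cells is stated beside it. Elsewhere, endothelial markers had a mean of 6.81 in iHECs and 1.76, 1.62 and 0.91 in the iHPCs in the order of days, and the mean over 9 stromal markers was at most 0.70 in any group. Of these, Pdgfrb was detected in 16 of 18 day-17 cells, with a median of 52.6 TPM, and in 44 of 56 day-21 cells.

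Phgdh, the committed step into serine synthesis, was the most abundant of the 8 transcripts at every day of the iHPCs. In iHECs it was listed at 0 in 38 of 65 cells, with a median of 0 and a highest value of 595 TPM, and 22 cells were above 1 TPM (33.8%, exact Clopper-Pearson 95% interval 22.6 to 46.6). Intervals of this kind cover counting error only. At day 14 the lowest, median and highest values were 541, 1369 and 1668 TPM, at day 17 they were 427, 1496 and 2365 TPM, and at day 21 they were 5.85, 657 and 2258 TPM. Every iHPC was thus above 1 TPM, and only iHEC 2 reached the range of day 14. The lowest values of day 14 and day 17 belonged to cells 17 and 9, whose blood markers were low. Without the 6 cells the iHECs ended at 449 TPM and the day-14 cells began at 681 TPM. These cells were left out after the data were seen, by markers that include Coro1a, which correlated with Phgdh at 0.61 within groups. Nothing is read from the gap. By its mean at day 17, Phgdh ranked 70th of all 23420 rows.

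Phgdh carries an uncertainty from near-identical copies. The annotation (GENCODE, GRCm38, chr3:98313170-98339990, minus strand, protein-coding) holds 19 other transcripts that match its own over at least 200 bases at 90% identity or more, nearly all of them processed pseudogenes, the closest at 98.7%. Of these only Gm6756 and Gm8096 were rows of the table, with sums over all 160 cells of 2.16 and 0.45 TPM. How the authors' counting divided reads among such copies is not given, and the part of reads from copies in the value of Phgdh was not tested. By the same limits Psat1 matched the processed pseudogene Gm12611 (91.0% over 1056 bases) and Shmt2 matched Gm15544 (90.1% over 233 bases). Neither copy was a row of the table.

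Psat1 (chr19:15904678-15947337, minus strand) took the second place in the serine branch. It was listed at 0 in 43 of 65 iHECs and detected in 15 (23.1%, interval 13.5 to 35.2), with a highest value of 360 TPM, again in iHEC 2. Its lowest, median and highest values were 192, 435 and 1125 TPM at day 14, 159, 319 and 783 TPM at day 17, and 0, 199 and 630 TPM at day 21. The 13 highest day-14 cells lay above every iHEC. At day 21 a single cell was at 0 and the other 55 of 56 were above 1 TPM.

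Psph (chr5:129765558-129787449, minus strand), the last step, was the lowest of the 3 serine synthesis enzymes in iHPCs. Its detection in iHECs was 25 of 65 cells (38.5%, interval 26.7 to 51.4), with a highest value of 189 TPM. The lowest, median and highest values were 56.5, 99.9 and 243 TPM at day 14, 19, 79.1 and 345 TPM at day 17, and 0, 96.1 and 298 TPM at day 21. The medians of the 3 iHPC groups thus stayed within a narrow range while those of Phgdh and Psat1 were lower at day 21. Psph shares 452 exonic bases with a transcript of Cct6a on the opposite strand, and the use of strand in the libraries is not stated. Smaller overlaps of this kind were 184 bases of Shmt1 with Smcr8, 37 of Mthfd1 with Gm47525 and 32 of Shmt2 with Ndufa4l2.

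Of the 2 hydroxymethyltransferases, mitochondrial Shmt2 (chr10:127517123-127522444, minus strand) was the higher. It was the member most often detected in iHECs, above 1 TPM in 36 of 65 cells (55.4%, interval 42.5 to 67.7), and the only one with a median there above 0, of 3.001 TPM. Its lowest, median and highest values were 122, 521 and 853 TPM at day 14, 295, 491 and 1109 TPM at day 17, and 0, 221 and 529 TPM at day 21. Cytosolic Shmt1 (chr11:60788104-60811718, minus strand) was the least often detected in iHECs, in 14 of 65 cells (21.5%, interval 12.3 to 33.5). Its lowest, median and highest values were 35.9, 138 and 249 TPM at day 14, 69.4, 162 and 359 TPM at day 17, and 0, 96.8 and 538 TPM at day 21. At day 21 it spread more widely than at the earlier days, with 8 of 56 cells at or below 1 TPM and 2 above every day-17 cell.

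The 3 folate enzymes spanned a wide range of levels. Mthfd2 (chr6:83305691-83325908, minus strand) was detected in 18 of 65 iHECs (27.7%, interval 17.3 to 40.2) and had medians of 194, 144 and 97.1 TPM in the iHPCs in the order of days, within ranges of 122 to 362, 18.7 to 471 and 0 to 455 TPM. Mthfd1 (chr12:76255298-76319803, plus strand) was detected in the same number of iHECs, with medians of 145, 124 and 38 TPM in the iHPCs, within 25.9 to 223, 52.5 to 227 and 0 to 183 TPM. Mthfd1l (chr10:3973118-4167081, plus strand), the mitochondrial formate enzyme, was the lowest of the 8 in every iHPC group. It had medians of 38.6, 33.6 and 7.13 TPM and was detected in 20 of 21, 17 of 18 and 33 of 56 cells (58.9% at day 21, interval 45 to 71.9). Among iHECs it was detected in 28 of 65 cells (43.1%, interval 30.8 to 56), more often than Phgdh, and its highest iHEC value, 329 TPM, was above every iHPC. The one day-14 cell in which it was listed at 0 had 3103 genes above 1 TPM, the fewest of that day.

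**Figure D1:**
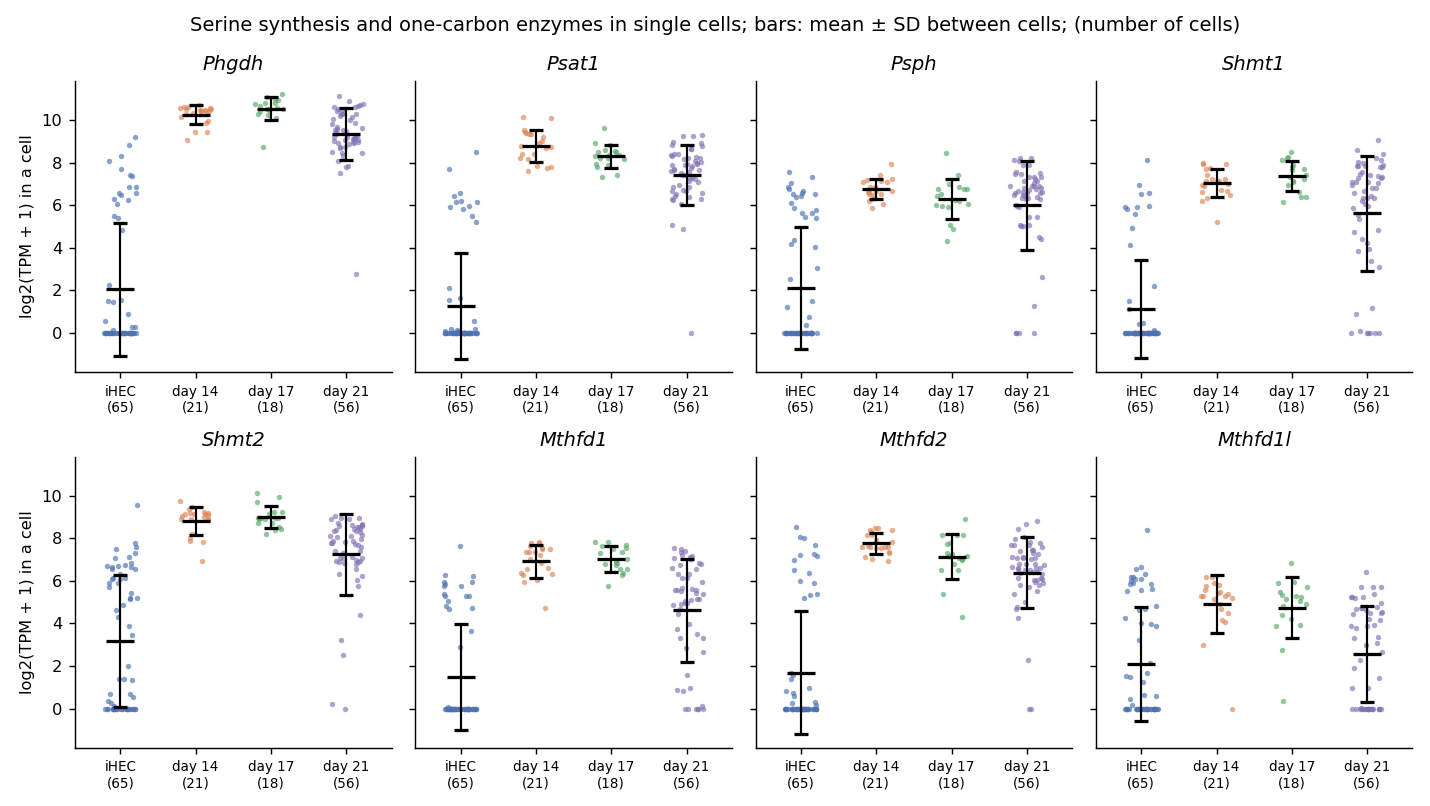
Level of each of the 8 enzymes, log2(TPM + 1) on the vertical axis, in the 65 iHECs and the 21, 18 and 56 iHPCs of days 14, 17 and 21. Each point is a cell and the bars give the mean and the SD between cells; most iHECs sit at 0 for every gene except Shmt2, and the day-14 and day-17 cells form tight bands, whereas the day-21 cells spread downward for all 8 genes.

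On the log2(TPM + 1) scale the order of levels at day 14 was Phgdh at 10.25 ± 0.45 (SD between cells), Shmt2 at 8.82 ± 0.67, Psat1 at 8.80 ± 0.75, Mthfd2 at 7.76 ± 0.49, Shmt1 at 7.03 ± 0.67, Mthfd1 at 6.93 ± 0.78, Psph at 6.76 ± 0.48 and Mthfd1l at 4.92 ± 1.36. Taken within each cell, Phgdh was above Shmt2 in 21 of 21 cells, by 1.43 ± 0.34, and Psph was above Mthfd1l in 21 of 21. Shmt2 and Psat1 differed by 0.02 ± 0.88, and the neighbors from Mthfd2 down to Psph also differed by less than 1 SD. The order at day 17 began in the same way, with Shmt2 above Psat1 by 0.70 ± 0.53 in 16 of 18 cells. At day 21 Psat1 stood in the second place by its mean, although it was above Shmt2 in only 24 of 56 cells, and no neighbors after Phgdh differed by more than 1 SD. In iHECs no neighbors did so.

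The mean over the 8 enzymes in a cell was 1.87 ± 1.58 over the iHECs, and over the iHPCs 7.66 ± 0.41, 7.55 ± 0.41 and 6.15 ± 1.23 in the order of days. The lowest, median and highest cells were at 0, 1.60 and 7.98 for the first group, 6.59, 7.67 and 8.29 at day 14, 6.91, 7.54 and 8.65 at day 17, and 3.06, 6.55 and 7.80 at day 21. The iHECs and the day-14 cells overlapped through iHEC 2 alone, and the next iHEC was at 5.69. The whole set of 8 was detected in 2 of 65 iHECs (3.08%, with 0.375 to 10.7 as its interval), in 20 of 21 day-14 cells (95.2%, interval 76.2 to 99.9), 17 of 18 day-17 cells (94.4%, interval 72.7 to 99.9) and 29 of 56 day-21 cells (51.8%, interval 38 to 65.3). In 8 iHECs none of the 8 was. The median number per iHEC was 2, and over all iHECs Shmt2, Mthfd1l and Psph were detected most often.

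The number of genes detected moved with these values. Over cells, the correlation of the mean over the 8 enzymes with the number of genes above 1 TPM was 0.70 in 65 iHECs, 0.39 in 21 day-14 cells, 0.39 in 18 day-17 cells and 0.71 in 56 day-21 cells. The 31 iHECs with at least 5000 genes above 1 TPM had a mean over the enzymes of 2.69, and the 34 with fewer had 1.13. Across groups, the medians of genes detected and of the mean over the enzymes had the same order, lowest in iHECs, then days 21, 17 and 14. The part of genes detected in the group differences was not tested. Single cells departed from this order. The day-14 cell with 3103 genes had a mean of 6.98, with Phgdh at 995 TPM and Psat1 at 293 TPM, whereas the iHEC with the most genes, 7533, had 5.65. Restricted to cells with at least 5000 genes, the difference of day 14 minus iHEC in the mean was 4.998, against 5.78 on all cells.

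**Figure D2:**
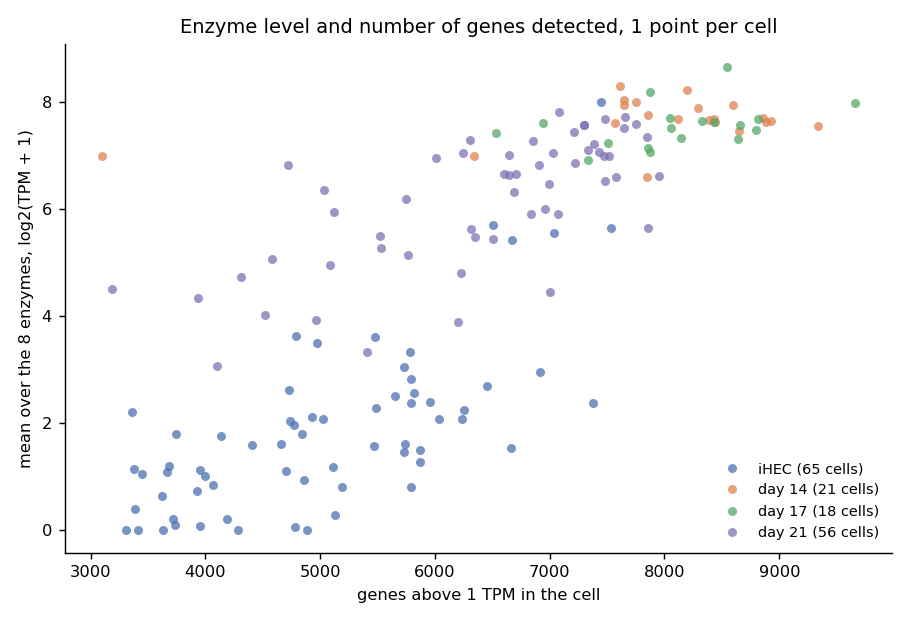
Mean over the 8 enzymes, log2(TPM + 1), against the number of genes above 1 TPM in the same cell, 1 point per cell, colored by group. Apart from iHEC 2 at 7.98 the iHECs lie below all day-14 and day-17 cells, they overlap with the lower day-21 cells, and in iHECs and day-21 cells the level is higher where more genes were detected.

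The first comparison asked how the pathway differed between iHECs and the first blood cells on the feeder. All 8 enzymes were at least 1 higher at day 14 in mean log2(TPM + 1), and 0 were at least 1 lower, in a comparison in which 48% of all 9674 genes were at least 1 higher and 11.5% at least 1 lower. Because Phgdh in this contrast led to the choice of the genes, nothing is read from that count. The difference was 8.20 for Phgdh, 7.52 for Psat1 and 4.66 for Psph, against a median of 0.93 over all genes. It was 5.92 for Shmt1, 5.64 for Shmt2, 6.06 for Mthfd2, 5.44 for Mthfd1 and 2.83 for Mthfd1l. In the order of all 9674 differences from the highest, Phgdh stood at place 4, Psat1 at 8, Mthfd2 at 28, Shmt1 at 36, Shmt2 at 51, Mthfd1 at 68, Psph at 166 and Mthfd1l at 1280. The mean difference of 5.78 was 7.88 with a pseudocount of 0.1 TPM and 3.57 with 10 TPM, since most iHEC values were at or near 0. It was 5.90 without the 6 cells whose blood markers went against their label, and 5.80 with the alike cells counted once.

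Between day 14 and day 17 the enzymes were at close levels. None of the 8 was at least 1 higher or lower, where 15.5% of all genes were at least 1 higher and 3.89% at least 1 lower. The differences, day 17 minus day 14, ran from -0.63 for Mthfd2 and -0.50 for Psat1 to 0.28 for Phgdh and 0.35 for Shmt1, and their mean of -0.11 compares with an SD between cells of 0.41 in each group. The median of all genes was 0.28, so relative to it Mthfd2, Psat1 and Psph stood at -0.90, -0.78 and -0.73.

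Between day 17 and day 21 the enzymes were lower at the later day to unequal extents. Lower by at least 1 were 5, Mthfd1 with -2.42, Mthfd1l with -2.18, Shmt1 with -1.77, Shmt2 with -1.74 and Phgdh with -1.18, and 0 were at least 1 higher, in a comparison in which 38.5% of all genes were at least 1 lower and 2.33% at least 1 higher. The other 3 were Psat1 with -0.86, Mthfd2 with -0.74 and Psph with -0.31. As the median of all genes was -0.74, Psat1, Mthfd2 and Psph stood at -0.13, -0.0038 and 0.43 relative to it and Phgdh at -0.45, whereas Mthfd1, Mthfd1l, Shmt1 and Shmt2 stood at -1.68, -1.44, -1.03 and -1.01. In this order Mthfd1 was 287th and Mthfd1l 484th of 9674 from the lowest. Every day-17 cell was above the day-21 median for Mthfd1 and for Shmt2, and 7 of 18 were for Psph. Fewer genes were detected in the day-21 cells. Over cells with at least 5000 genes the mean difference of the 8 was -1.13, against -1.40 on all cells, and Phgdh, at -0.97, was no longer at least 1 lower, whereas Mthfd1, Mthfd1l, Shmt1 and Shmt2 were at -2.04, -2.01, -1.64 and -1.24. With median-of-ratios size factors in place of TPM, the median of all genes shifted by 0.16 to -0.58, and the same number of enzymes, 5, was at least 1 lower.

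**Figure D3:**
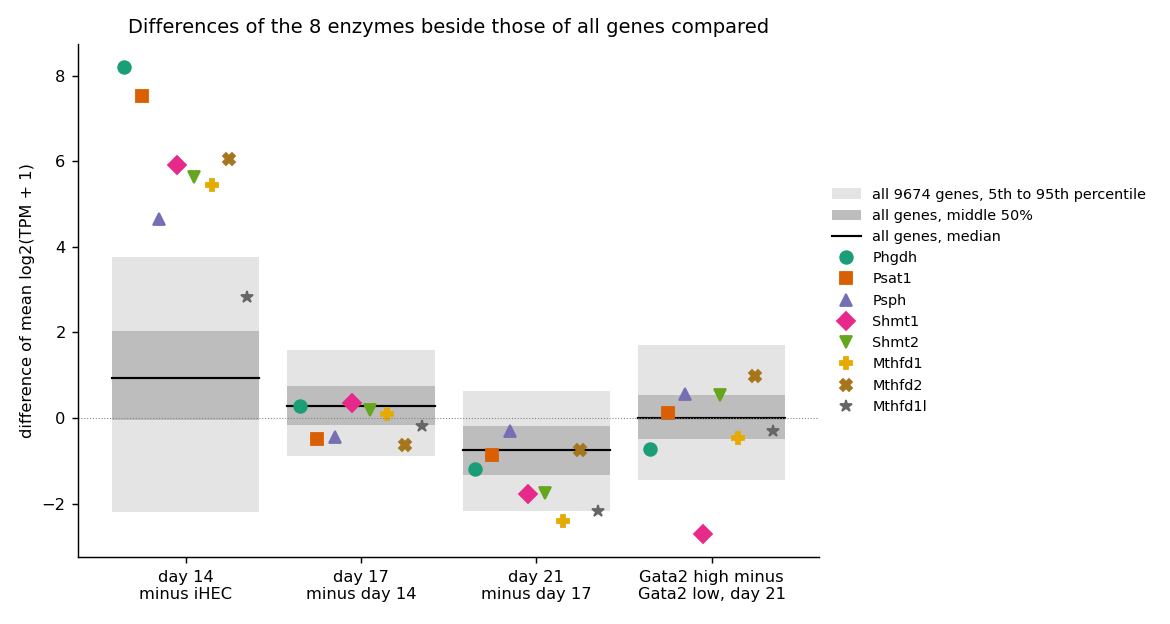
Difference of mean log2(TPM + 1) for each of the 8 enzymes (symbols) in the 3 comparisons of consecutive groups and in the day-21 cells by Gata2, over bands that hold the middle 50% and the 5th to 95th percentile of all 9674 genes, with their median as a line. From iHEC to day 14 the enzymes lie above the band apart from Mthfd1l at 2.83, and in the split by Gata2 only Shmt1, at -2.71, lies below it.

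Within day 21 the cells were divided by Gata2, the transcription factor of mast cell and early progenitor programs, at 31 TPM. The split gave 22 cells at or above it and 34 below. No cell lay near the threshold, as the lowest value inside was 66.0 TPM and the highest outside 9.18 TPM, with 15 cells listed at 0 and a highest value of 1739 TPM. The median number of genes detected was close, at 6665.5 and 6769.5. The cells with fewer than 5000 genes were unevenly divided, at 1 of 22 Gata2-high and 7 of 34 Gata2-low cells. Mast cell and basophil markers moved with the split, with a mean over 9 markers of 7.27 (range 4.29 to 8.27) in the Gata2-high and 2.60 (1.29 to 3.91) in the Gata2-low cells, and with 2 and 3 of the markers at 0 in every cell. Blood markers had means of 9.37 and 8.74, and markers of T or innate lymphoid cells 2.92 and 3.91. Among the last the genes went opposite ways, with Gzmb at 13.53 in Gata2-high and 5.20 in Gata2-low cells and Gzma at 1.83 and 7.15, Cd3g at 0.85 and 5.32 and Cd7 at 4.25 and 7.62. The part of this difference in makeup in the values below was not tested. Day and gate were the same for both sets.

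The mean over the 8 enzymes was 6.00 ± 1.03 in the Gata2-high and 6.25 ± 1.34 in the Gata2-low cells, a difference of -0.25 that is smaller than the spread between cells. In the 21 and 27 cells with at least 5000 genes the means lay further apart, at 6.08 ± 0.99 and 6.68 ± 1.01. Shmt1 stood out from the other 7. Its lowest, median and highest values were 0, 23.8 and 162 TPM in Gata2-high cells and 0, 156 and 538 TPM in Gata2-low cells, and 30 of 34 Gata2-low cells were above the median of the Gata2-high cells. The means of 3.96 ± 2.85 and 6.67 ± 2.03 differed by -2.71, which is larger than the spread within the Gata2-low cells but not within the Gata2-high cells. Detection was 16 of 22 (72.7%, interval 49.8 to 89.3) against 32 of 34 cells (94.1%, interval 80.3 to 99.3), with intervals that overlap. The difference of Shmt1 was 99th from the lowest of all 9674 genes, and it was -3.15 in the cells with at least 5000 genes. Shmt1 was the only 1 of the 8 that was at least 1 lower, where 10.2% of all genes were, and 0 were at least 1 higher, where 13% of all genes were.

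Phgdh differed by -0.72 in the same direction, with medians of 494 and 974 TPM, and 30 of 34 Gata2-low cells lay above the Gata2-high median. Mthfd2, with medians of 120 and 87.7 TPM, differed by 0.99, and with median-of-ratios size factors by 1.15, past the threshold of 1. In the cells with at least 5000 genes its difference was 0.53, and that of Shmt2 was -0.26 against 0.53 on all cells, so that the sign for Shmt2 turned with the choice of cells, as did that of Psat1, from 0.11 to -0.13. Phgdh and Mthfd1 were then at -1.04 and -1.08, past the threshold of 1. Psat1 (0.11), Psph (0.55), Mthfd1 (-0.46) and Mthfd1l (-0.30) differed by less than the SD between cells of either set.

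**Figure D4:**
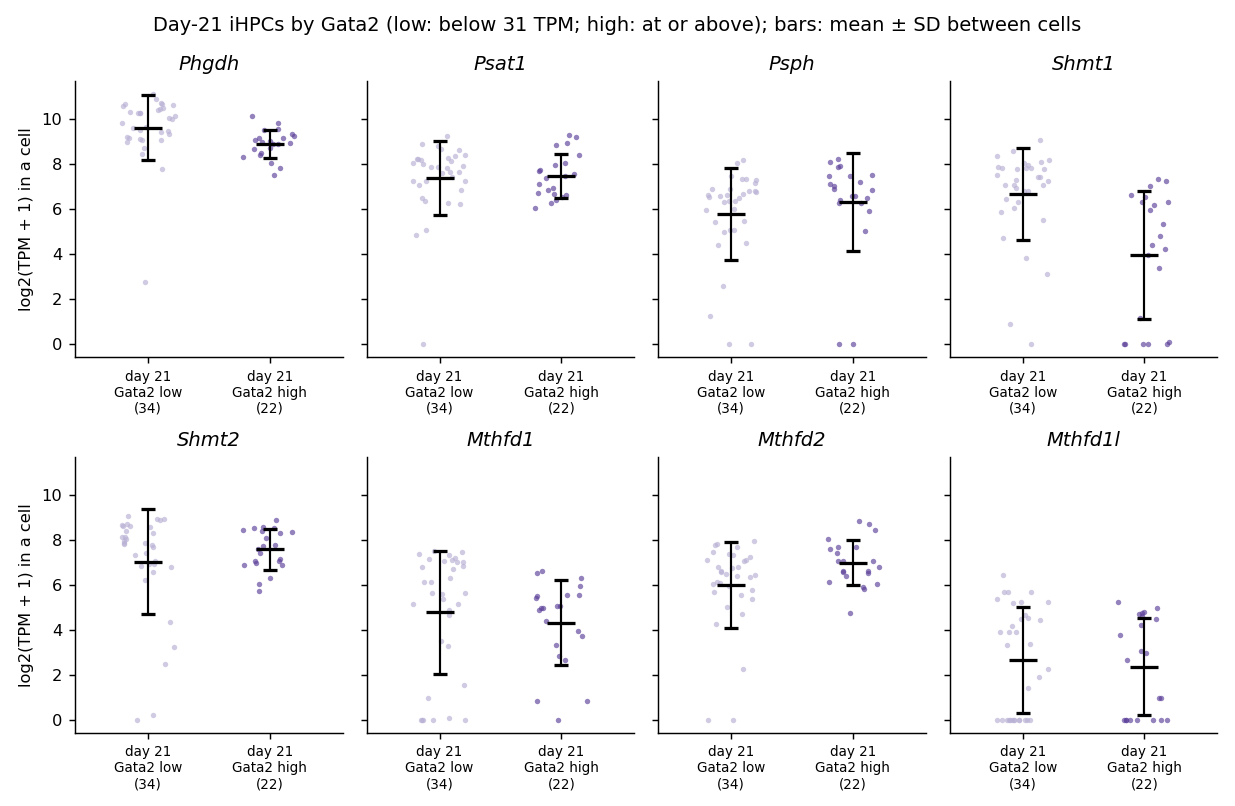
Level of each of the 8 enzymes, log2(TPM + 1), in the 34 day-21 cells below and the 22 at or above 31 TPM of Gata2, with 1 point per cell and bars for the mean and the SD between cells. The sets overlap for all 8 genes, and Shmt1 has the widest separation, with means of 6.67 and 3.96.

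Because TPM is per length, the mitochondrial and cytosolic partners could be set against each other within a cell. Shmt2 was above Shmt1 in 21 of 21 day-14 cells, by 1.79 ± 0.78 on the log2(TPM + 1) scale, in 18 of 18 day-17 cells, by 1.62 ± 0.85, and in 47 of 56 day-21 cells (83.9%, interval 71.7 to 92.4), by 1.64 ± 2.86. The day-21 cells in which Shmt1 was the higher, 9 in all, were Gata2-low cells. Among Gata2-high cells Shmt2 was above Shmt1 in 22 of 22, by 3.62 ± 2.64, and among Gata2-low cells in 25 of 34, by 0.37 ± 2.21. In the 16 and 31 cells with both genes above 1 TPM the differences were 2.37 ± 1.87 and 0.44 ± 1.43.

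Mthfd2 and Mthfd1 were closer at the earlier days. Mthfd2 was above Mthfd1 in 19 of 21 day-14 cells, by 0.83 ± 0.81, in 11 of 18 day-17 cells, by 0.10 ± 0.88, and in 43 of 56 day-21 cells (76.8%, interval 63.6 to 87.0), by 1.78 ± 2.56. Within day 21 the difference was 2.66 ± 2.097 in Gata2-high and 1.21 ± 2.69 in Gata2-low cells. In iHECs both genes of a pair were above 1 TPM in 10 cells for Shmt2 and Shmt1 and in 6 for Mthfd2 and Mthfd1, too few for a statement on the group.

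**Figure D5:**
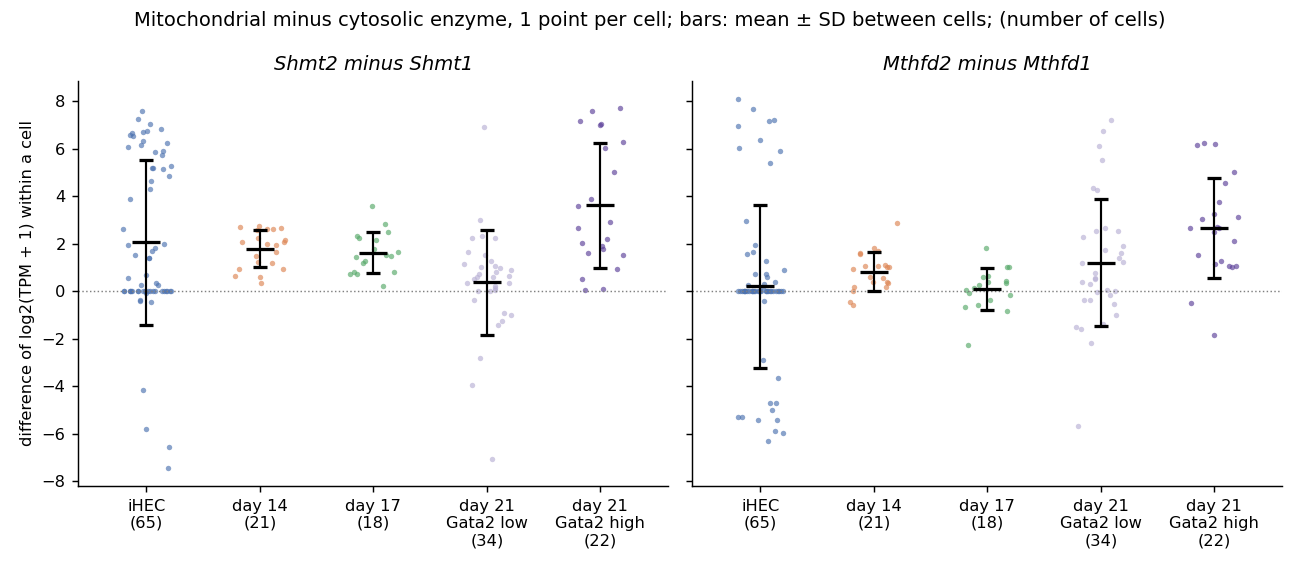
Difference of log2(TPM + 1) within a cell between the mitochondrial and the cytosolic enzyme, Shmt2 minus Shmt1 (left) and Mthfd2 minus Mthfd1 (right), for iHECs, days 14 and 17 and the day-21 cells by Gata2, with bars for the mean and the SD between cells. All 22 Gata2-high cells lie above 0 on the left, and day-14 and day-17 cells form a narrow band there.

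The genes around the pathway were read from 8 lists chosen by name, with lower or higher again meaning a difference of at least 1. From iHEC to day 14 the median of all genes was 0.93, with 48% higher and 11.5% lower. Of the other folate genes that passed the filter, 10 of 11 were higher (median 2.35). Among them were the reduced folate carrier Slc19a1 with 5.19 and folylpolyglutamate synthase Fpgs with 3.33. All 8 genes of thymidylate and deoxynucleotide synthesis were higher (median 3.82), led by the ribonucleotide reductase subunit Rrm2 with 7.46 and thymidine kinase Tk1 with 5.91. Of purine synthesis 11 of 12 were higher (median 2.80), among them Gart with 4.65 and Atic with 4.19, both of which take their carbon from formyl folate. The methionine cycle had 6 of 8 higher (median 2.56), led by Ahcy with 5.46, and genes of serine and glycine use and transport 11 of 14 (median 1.67), led by the phosphatidylserine synthases Ptdss2 with 2.91 and Ptdss1 with 2.58. Of proliferation genes 16 of 16 were higher (median 4.98), with Birc5 at 7.39.

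In the other 2 lists the counts were mixed, in a comparison in which 48% of all genes were higher and 11.5% lower. Of Atf4 and genes of amino acid starvation 12 of 19 were higher and 1 lower (median 1.62), led by the amino acid transporter Slc7a5 with 5.34 and the proline synthesis enzyme Aldh18a1 with 4.54. Of late glycolysis, in which Gapdh and Pgk1 lead to 3-phosphoglycerate and the other genes act after it, 1 of 6 was higher and 1 lower (median 0.07). Gapdh differed by 1.65 and Pgk1 by -1.48, from 10.47 ± 0.68 in iHECs to 8.99 ± 0.44 at day 14. Among close relatives and neighbors of the members, Atf4 itself had a median of 264 TPM at day 14, the mitochondrial paralog Mthfd2l was detected in 12 of 65 iHECs and 12 of 21 day-14 cells, and the glycine decarboxylase Gldc, which breaks glycine down in mitochondria, was detected in 5 of 65, 2 of 21 and, at day 21, 0 of 56. Taken as 3 cells of the total, a count of 0 allows up to 5.36% of cells with a value over 1 TPM, which is no limit on cells that express the gene. Tyms, the thymidylate synthase, was detected in 46 of 65 iHECs, and Gcsh and Sfxn1, the mitochondrial serine carrier, in 56 and 58.

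From day 14 to day 17, with a median of all genes of 0.28, the medians of the lists lay between -0.24 and 0.53. Of Atf4 and genes of amino acid starvation 5 of 19 were lower, where 3.89% of all genes were, and 1 was higher (Trib3 at -1.99, the asparagine synthetase Asns at -1.71 and Cebpb at -1.59). Of proliferation genes 3 of 16 were higher, a share near the 15.5% of all genes (Mcm4 at 1.24, Mcm6 at 1.15 and Mcm2 at 1.08). Dctd in the thymidylate list was at -1.85, Prps2 in the purine list at 1.53.

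From day 17 to day 21, with a median of -0.74 and 38.5% at least 1 lower over all genes, 6 of 11 other folate genes were lower (median -1.005), led by Fpgs with -2.54 and Slc19a1 with -2.38, and 7 of 14 genes of serine and glycine use (median -0.92). Lower were also 5 of 12 purine genes (Gart with -2.27), 5 of 8 of thymidylate synthesis (Tk1 with -1.98), 9 of 19 of the Atf4 list (Asns with -2.67, Slc7a5 with -2.58) and 10 of 16 of proliferation (Mcm2 with -1.99). The methionine cycle, with 1 of 8, and late glycolysis, with 1 of 6, had the fewest. The shares of the purine, serine and glycine and Atf4 lists lie near that of all genes. Relative to the median difference, 13 list genes over all 8 lists were at least 1 lower, against 43 as measured.

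Between the day-21 cells by Gata2 the median of all genes was 0.00, with 13% higher and 10.2% lower, and the lists diverged. In Gata2-high cells 7 of 12 purine genes were lower and 0 higher (median -1.07), led by Prps2 with -3.30, Paics with -1.36 and Ppat with -1.34. Lower were also 4 of 8 genes of thymidylate synthesis (median -0.97) and 11 of 16 of proliferation (median -1.26), among them Birc5 with -2.39 and Mcm5 with -1.94. The Atf4 list went the other way, with 7 of 19 higher and 0 lower (median 0.72), led by Asns with 3.34, Ddit3 with 2.67 and Slc7a5 with 1.62. Of genes of serine and glycine use and transport 2 of 14 were higher and 0 lower (median 0.30), a share near the 13% of all genes. The largest difference among them was that of the glycine transporter Slc6a9, at 3.104 ± 2.08 in Gata2-high and 0.01 ± 0.07 in Gata2-low cells. Of the other folate genes 1 of 11 was higher and 1 lower (Ggh with 1.68, Mthfs with -1.13), of the methionine cycle 0 of 8 and of late glycolysis 0 of 6 in either direction. Myc, a regulator of growth genes, had medians of 42.3 TPM in Gata2-high and 146 TPM in Gata2-low cells.

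Within a group the 8 enzymes went together weakly from cell to cell. The median of the 28 pairwise correlations on the log2(TPM + 1) scale was 0.23 in 65 iHECs, 0.21 in 21 day-14 cells, 0.17 in 18 day-17 cells and 0.28 in 56 day-21 cells. Once a straight-line trend on genes detected had been taken out it was 0.12 in iHECs and 0.12 at day 21. The highest pair at day 14 was Phgdh with Shmt2, at 0.89, or 0.80 without the 2 cells whose blood markers were low, and the same pair was the highest at day 21, at 0.60. In iHECs it was Psat1 with Mthfd2, at 0.43, or 0.31 without the 3 iHECs whose blood markers were high. Cells of a group share their preparation and differ in complexity, so these values are a description.

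Over all 160 cells, with each gene centered within its group, the genes most like the mean over the 8 enzymes were Slc7a5, a transporter of large neutral amino acids, with a correlation of 0.59, Nop9 with 0.58, the replication factor subunit Rfc5 with 0.56, the RNA methyltransferase Nsun2 with 0.55 and the DNA polymerase subunit Pold1 with 0.54. Of the 9666 other genes compared, the median was 0.17 and the 95th percentile 0.39, and the number of genes detected itself correlated at 0.64. Without the 6 cells whose blood markers went against their label, Slc7a5 was at 0.55 and Nop9 at 0.58. For 7 of the single members the first gene was Coro1a for Phgdh (0.61), the alanine aminotransferase Gpt2 for Psat1 (0.48), R3hdm4 for Psph (0.50), Pold1 for Shmt1 (0.54), Dohh for Shmt2 (0.60), Tcof1 for Mthfd1 (0.50) and Apba3 for Mthfd2 (0.42). Some of these places depended on the cells used. Without the 6 cells Gpt2, at 0.39, fell below Slc7a5, at 0.41, for Psat1, and Tcof1, at 0.47, below Nop9, at 0.48, for Mthfd1. With alike cells counted once Tcof1, at 0.50, lay below Nop9, at 0.52, and Apba3, at 0.43, below Mboat7, at 0.45, for Mthfd2.

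Among iHECs the level of the enzymes was set beside that of blood markers. The mean over the 8 enzymes correlated at 0.62 with the mean over the blood markers in 65 iHECs, at 0.53 without the cell of the highest mean and at 0.61 in the 62 without the 3 of high blood markers, and the blood markers themselves at 0.44 with the number of genes detected. The 5 iHECs with the highest mean over the enzymes, chosen after their values were seen, had blood marker means of 2.51 to 7.46 and Ptprc listed at 0. Of these, iHECs 12, 38, 29 and 26 had endothelial means of 6.46, 5.91, 7.48 and 6.06, and Coro1a was at 1.45 TPM in iHEC 12 and 0.495 TPM in iHEC 26. iHEC 64, with the highest blood markers of all, had a mean over the enzymes of 3.49. iHEC 2, the highest, had 7447 genes above 1 TPM, Coro1a at 448 TPM, Ptprc at 0, Cdh5 at 1.304 TPM and an endothelial marker mean of 3.46, and its Phgdh, Psat1 and Shmt2 stood at 595, 360 and 757 TPM. iHECs 31 and 64, whose blood markers were also high, had Phgdh at 89.3 and 74.9 TPM and Shmt2 at 0 in both. Conversely, the 3 iHPCs with low blood markers had all 8 enzymes above 1 TPM, with means of 7.67, 7.70 and 7.56, within the range of their days.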

How the data were processed

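Single sorted cells were amplified with the Discover-sc WTA Kit V2 and libraries were prepared with a TruePrep kit. As the authors' methods and processing notes give it, reads were demultiplexed with bcl2fastq and aligned to mm10 with HISAT2 (2.1.0) and SAMtools (0.1.19), and the deposited TPM values of each cell were estimated by the authors with StringTie (1.3.4). The annotation and strandedness are not given in the sources used here, and the depth of a cell is unknown.

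Values were taken as log2(TPM + 1). Comparisons covered genes over 1 TPM in upward of 30 cells, as differences of group means, which were counted from 1 upward. With 1 sample per group no test was run, and shares have exact Clopper-Pearson 95% intervals. No doublet caller was run and no cell was removed. The difference step returned the changes that had been added to normal values simulated with the day-14 means and SDs. These values lacked the many zeros of the iHECs, so the step checks the code and not the differences reported. Annotation came from GENCODE M21 and promoter sequences from RefSeq. Scripts used Python 3.11.15, NumPy 2.4.6, pandas 2.3.3, SciPy 1.17.1 and matplotlib 3.10.9.

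The members, the lists and the Gata2 split were chosen with earlier results of these data known. Named genes beyond the members were the 3 with the largest absolute difference of each list in each comparison, listed neighbors of the pathway, and the 5 genes most like the mean over the members and the 2 most like each member, of which the text gives a part. Coro1a, Ptprc and Cdh5 in single iHECs and the markers Pdgfrb, Gzmb, Gzma, Cd3g and Cd7 were named after their values were seen. Some genes that this rule names are not reported here.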

Additional observations from a re-analysis of the deposited data

How the results depend on the processing

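Of 212 alternative values for the main results, 175 were labeled the same, 37 moved and 0 reversed. Of 320 for single enzymes, 300 were the same and 20 moved. A difference was the same within 1 SD between cells, and a count or an SD within 1.5 times. A share was the same inside the interval of its main value, and a correlation within 0.1. Only a main difference of at least 1 could be reversed. The sign changes of Shmt2 and Psat1 in the split by Gata2 started from smaller differences and counted as the same. Counting alike cells once, leaving out the highest iHEC and leaving out the 6 cells whose blood markers went against their label were chosen after seeing the data. The mean difference of day 14 minus iHEC was 5.78, and 7.88 with a pseudocount of 0.1 TPM and 3.57 with 10 TPM. Counted over the 8 lists without the members, 2 genes were lower at day 14 than in iHECs, against 1 with a pseudocount of 10 TPM, 9 relative to the median difference and 0 at a threshold of 2. At day 17 against day 14, 5 were higher (8 with 0.1 TPM, 1 relative to the median, 0 at 2) and 6 lower (10 with 0.1 TPM, 3 with 10 TPM, 14 relative to the median, 0 at 2). At day 21 against day 17, 1 was higher (2 with 0.1 TPM, 0 with 10 TPM, 5 relative to the median, 0 at 2) and 43 lower (20 with 10 TPM, 13 relative to the median, 7 at 2), and of the 8 enzymes 5 were lower, against 2 at a threshold of 2. In the split by Gata2, 10 list genes were higher (18 with 0.1 TPM, 5 with 10 TPM, 3 at 2) and 23 lower (7 with 10 TPM, 2 at 2), and 0 enzymes were higher, against 1 with 0.1 TPM. With 10 TPM the SD between cells of the mean over the enzymes was 0.838 in iHECs and 0.791 at day 21. The share of the enzymes' values above 1 TPM in iHECs became 40.8% above 0 TPM, 28.3% above 10 TPM and 48% in cells with at least 5000 genes, where it was 100% at day 14 and 91.7% at day 21. Above 0 TPM it was 100% at day 17, and above 10 TPM it was 83.9% at day 21. The median pairwise correlation without the trend over genes detected was 0.12 in iHECs and 0.12 at day 21. The cause of these moves was not tested beyond what each setting does by construction. No paired analysis was possible because the numbers in the labels only name cells and no test was run. Depth is unknown, so a listed 0 cannot be read as absence.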

Other observations

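Within day 21, correlations of the enzymes with the lists changed when the cells were divided by Gata2. Over all 56 cells Shmt1, the cytosolic hydroxymethyltransferase, correlated at 0.75 with the mean over purine synthesis genes and at 0.16 with that over Atf4 and genes of amino acid starvation. Mthfd2, the mitochondrial dehydrogenase, correlated at 0.27 with the purine list and at 0.58 with the Atf4 list, and Shmt2 at 0.51 and 0.64. Over the 22 Gata2-high and the 34 Gata2-low cells taken apart, Shmt1 correlated at 0.42 and 0.51 with the Atf4 list and at 0.62 and 0.77 with the purine list. Mthfd2 correlated at 0.62 and 0.53 with the Atf4 list and at 0.034 and 0.61 with the purine list. Within day 21, Shmt1 thus had a lower value with the Atf4 list over the pooled cells than in either set. The 2 sets differ in the mean of both, and the part of this in the pooled value was not tested. In the other groups the value was 0.21 in 65 iHECs, 0.38 in 21 day-14 cells and -0.20 in 18 day-17 cells. The 2 lists themselves correlated at 0.53 and 0.68 (purine) and at 0.63 and 0.84 (Atf4) with the number of genes detected in the 2 sets. These are descriptions over cells of 1 sample.

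The mean over the 8 enzymes correlated at 0.78 with the mean over late glycolysis genes in the 56 day-21 cells. That list correlated at 0.80 with the number of genes detected. The other lists were at 0.54 (methionine cycle) to 0.76 (purine synthesis). At day 17 the mean over the enzymes correlated at 0.86 with the Atf4 list in 18 cells, and at 0.78 without the highest cell. The other lists were at -0.32 (purine synthesis) to 0.62 (other folate genes). Each value named first is the highest of the 8 lists. Mycn, a relative of Myc with a role in growth, had medians of 109, 116, 132 and 44.2 TPM in iHECs and in the iHPCs in the order of days, and Myc had 43.9, 307, 180 and 100.2 TPM.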
